A study of Sus scrofa with 20 samples.

Results

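Gene expression in pig hearts was followed across 4 groups placed in order of rising ischemic burden. All 20 of the 20 arrays of the study entered, and all 6765 genes that could be named among 23999 probe sets. The groups were given the scores 0, 1, 2 and 3, and each probe set was asked for a straight-line slope over the score and for a departure of the 4 group means from that line. Each array held RNA from the heart of 1 female pig, hybridised to a 1-colour Affymetrix porcine array, and each group had 5 animals. Control animals (score 0) had a sham operation. SWOP animals (score 1) had 1 session of 2 coronary occlusions of 10 min with reperfusion between and after, and were sampled after 24 h of reperfusion. RCO animals (score 2) had that session 6 times, once every 12 h, according to the series description, whereas the sample label speaks of 6 episodes. RCS animals (score 3) had 90 min of reduced coronary flow, 6 times, once every 12 h. No other agent or allele is named for any group. For RCO and RCS, the sources used here do not give the time from the last episode to sampling, and for no group do they give the part of the heart.

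The score orders the groups and is no dose. By the description, total ischemia came to 0, 20, 120 and 540 min, and the sessions to 0, 1, 6 and 6. From SWOP to RCO the sessions and the minutes rose together, with the same kind of occlusion. From RCO to RCS the sessions stayed at 6, while the minutes and the kind of flow reduction changed. In a slope over the 4 groups, the parts of these features and of the elapsed time cannot be told apart.

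As background, SWOP stands for the second window of protection, the late phase of ischemic preconditioning, in which new protein synthesis makes the myocardium tolerant about a day after brief ischemia. Repeated occlusion and repeated low-flow stenosis are pig models related to hibernating myocardium, in which viable muscle contracts less and changes its metabolism. Adult heart muscle takes most of its energy from fatty acid oxidation in mitochondria, and a stressed heart re-expresses fetal genes, moves its fuel use towards glucose, and recruits macrophages and fibroblasts.

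The tissue matched its label: the 8 measured of 10 cardiomyocyte markers stood between the 97.2 and 100 percentiles of all probe sets. Of the other cell types, 4 of 5 measured neutrophil markers lay below the 30th percentile in every group. RCO arrays were the least alike, with correlations between replicates of 0.959 to 0.990, against 0.985 to 0.992 in control, 0.991 to 0.996 in SWOP and 0.987 to 0.994 in RCS. On the first principal component, which held 48.9% of the variance, RCO replicates 2 and 3 stood at 44.0 and 29.4, among the RCS arrays (26.4 to 64.3). RCO replicates 1 and 5 stood at -18.3 and -18.3, within the SWOP range (-27.5 to -17.5). RCO replicate 4, at -3.57, lay above the SWOP arrays and below the RCS arrays. Many results that rest on those 2 arrays are therefore given with and without them, though not every one. The 2 were picked for lying near RCS, so leaving them out moves the RCO mean away from RCS. Changes seen without them follow in part from that choice. The actin 3′ minus 5′ control difference, a sign of RNA or labelling quality, was 0.51 to 0.73 on the RCS arrays, 0.78 and 0.79 on RCO replicates 2 and 3, 1.12 to 1.69 on the other RCO arrays, 1.22 to 1.70 in SWOP and 1.24 to 1.96 in control. It thus moved with the score and with the main split of the RCO arrays. The same difference for GAPDH and EF1a moved less, and in opposite directions. For GAPDH, RCS arrays read -0.06 to 0.19 where control arrays read -0.16 to -0.06, and RCO replicates 2 and 3 read 0.08 and -0.07. For EF1a, RCS arrays read -0.20 to -0.05 where control arrays read -0.06 to 0.03, and those RCO replicates read -0.14 and -0.11. The part of these controls in the results below was not tested.

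A large share of the measured genes had a slope. In the limma fit, at a Benjamini-Hochberg adjusted p below 0.05, 1923 of 6765 genes were higher (28.4%) and 1748 lower (25.8%) as the score rose. Over all probe sets, 4532 were higher (18.9%) and 6529 lower (27.2%). The median standard error of a slope was 0.035 log2 units per step. The departure from the line passed for 2028 probe sets (8.45%) and 604 genes (8.93%). Leaving out 1 array moved the 2028 probe sets to 1305 (control replicate 4), 631, 787, 590 and 487 (SWOP replicates 2, 3, 4 and 5), 1235 and 1236 (RCS replicates 3 and 4) and 4503 (RCO replicate 2). Without RCO replicates 2 and 3 together, 1908 genes were higher (28.2%) and 1662 lower (24.6%), while the genes with a departure rose to 2176 (32.2%).

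The split between higher and lower depended on the scaling for dim probe sets. Among probe sets with a slope, split by mean signal into 3 equal parts, 22.5% of the dimmest, 38.4% of the middle and 54.4% of the brightest part were higher as deposited. With quantile normalization these shares were 45.7%, 40.7% and 42.7%, and with centring on the array median 25.4%, 40.6% and 56.4%. The median slope of all genes stayed near 0, at -0.006 as deposited and -0.015 after quantile normalization. The spread of the deposited values also differed by group. Their interquartile range was 3.27 to 3.44 on RCS arrays, where control arrays had 3.04 to 3.16. SWOP arrays had 3.26 to 3.30, and RCO arrays varied from 3.05 to 3.32. The part of this spread in the slopes of dim and bright probe sets was not tested.

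Genes were called graded where the slope passed, the 4 means lay in strict order and no departure was detected (unadjusted p of at least 0.05). This held for 1033 genes rising (15.3%) and 447 falling (6.61%). A departure that was not detected does not show that the steps were equal. A gene was said to be set apart in 1 group where the departure passed, that group differed in the same direction from each of the other 3, and those 3 spanned less than a fraction of 0.5 of its distance from them. RCS was set apart for 66 genes (0.976%), SWOP for 32 (0.473%), RCO for 6 (0.0887%) and control for 12 (0.177%). Both kinds rest on the tests above and are descriptions.

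**Figure D1:**
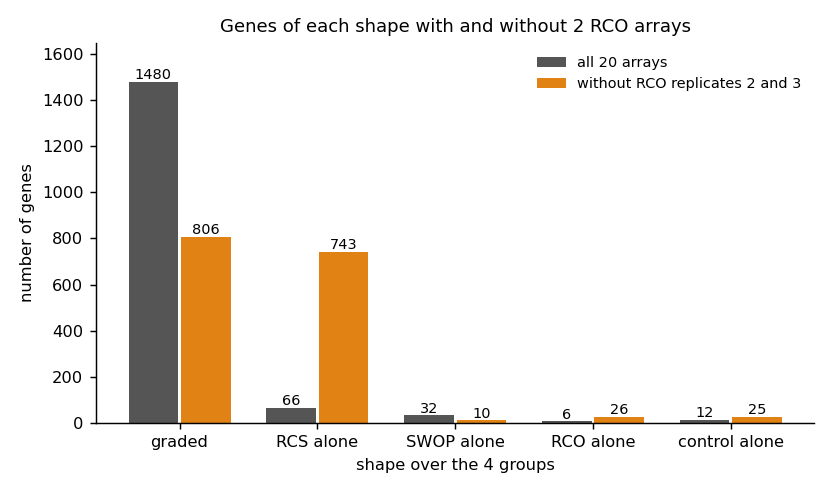
Number of genes (vertical axis) of each shape over the 4 groups, with all 20 arrays (grey) and without RCO replicates 2 and 3 (orange). Graded genes fall from 1480 to 806 and genes set apart in RCS rise from 66 to 743 when the 2 arrays are left out.

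The line between graded genes and RCS genes moved when RCO replicates 2 and 3 were left out. Since they were picked for lying near RCS, fewer graded genes and more RCS genes follow in part from the choice. Without them, graded genes numbered 806 in place of 1480. Of those, 739 were in both sets, which is 49.9% of the larger and 91.7% of the smaller. Another 267 of the 1480 became genes set apart in RCS, a class that grew from 66 to 743 (54 in both, 81.8% and 7.27%). SWOP genes numbered 10 in place of 32 (8 in both), RCO genes 26 in place of 6 (4 in both) and control genes 25 in place of 12 (7 in both). Genes that stayed graded without the 2 arrays are named as such below, as a description and not as an independent check.

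How far along the control-to-RCS change the middle groups stood was read from 12012 probe sets chosen with control and RCS arrays alone, so that the SWOP and RCO arrays took no part in the choice. A position of 0 is the control mean and 1 the RCS mean. The SWOP arrays stood at 0.211, 0.207, 0.235, 0.259 and 0.143, a mean of 0.211 ± 0.0434 (SD, n = 5). The RCO arrays stood at 0.247, 0.889, 0.758, 0.393 and 0.199, a mean of 0.497 ± 0.31 (SD, n = 5). Every SWOP array was closer to control than equal steps would place it (0.333), and the RCO arrays lay on both sides of their equal step (0.667), 2 of them within the SWOP range. Genes higher in RCS put SWOP at 0.184 and RCO at 0.519, and genes lower in RCS put SWOP at 0.272 and RCO at 0.449. No test was made of these positions. In the graded genes, which were chosen with all groups, the median share of the RCS minus control change was 25.5% at SWOP and 58.0% at RCO. A total change above 2-fold was reached by 360 graded genes, 310 of them rising.

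**Figure D2:**
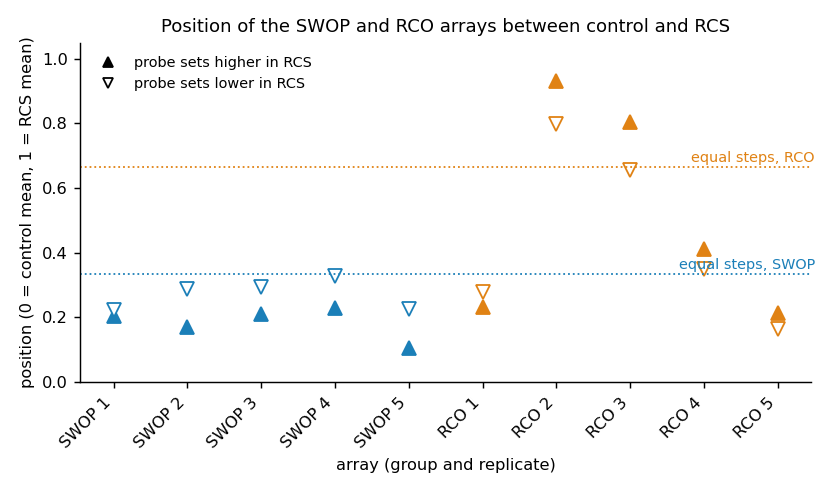
Position of each SWOP and RCO array (horizontal axis) between the control mean (0) and the RCS mean (1), with no unit, for probe sets higher (filled) or lower (open) in RCS. Dotted lines mark equal steps. The SWOP arrays lie together below 0.333, whereas RCO replicates 2 and 3 lie far above the other 3 RCO arrays.

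The steepest graded gene was SPP1, which encodes osteopontin, a matrix protein and cytokine made by macrophages and injured tissue. Its log2 signal was 6.73, 7.75, 8.65, 8.85 and 7.63 in control, 9.57, 7.17, 9.42, 8.70 and 8.36 in SWOP, 9.0, 13.27, 13.60, 12.75 and 12.05 in RCO, and 13.28, 14.06, 13.86, 13.80 and 13.31 in RCS. Control and SWOP overlapped, 4 of the 5 RCO arrays lay above both, and RCO replicate 1 stayed within the SWOP range. The slope was 2.07 ± 0.20 log2 units per step (SE; limma adjusted p = 6.63e-07), and RCS exceeded control 53.4-fold. SPP1 stayed graded without RCO replicates 2 and 3.

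CILP, a matrix protein of cartilage and heart, had a higher mean at each step. Its values were 8.19, 8.68, 9.54, 7.63 and 7.85 in control, 9.05, 9.48, 10.42, 10.27 and 9.99 in SWOP, 10.07, 11.69, 12.37, 11.31 and 10.81 in RCO, and 11.11, 12.37, 12.46, 12.36 and 12.29 in RCS. Neighbouring groups overlapped, but control lay wholly below RCO and SWOP wholly below RCS. The slope was 1.26 ± 0.13 per step (SE; limma adjusted p = 7.67e-07), with a 13.4-fold total rise, and CILP also stayed graded without the 2 arrays. POSTN, the fibroblast matrix protein periostin, which was named after its values were seen, had group means of 9.28 ± 0.85, 10.22 ± 0.26, 11.27 ± 0.94 and 12.53 ± 0.43 (SD, n = 5) and stayed graded.

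Other steep genes are known from macrophages and matrix, and their graded shape was lost without RCO replicates 2 and 3. LGALS3 (galectin-3, a lectin of activated macrophages) had means of 6.28, 6.61, 8.99 and 11.38 in score order, and GPNMB, a glycoprotein of lipid-laden macrophages, 6.03, 6.77, 9.10 and 11.07. Their RCO standard deviations were 2.12 and 1.63. TNC (tenascin-C, a matrix protein of wound edges), CXCL14 (a chemokine), SLC11A1 (a metal transporter of phagosomes) and CAPG (an actin-capping protein of macrophages) had slopes of 1.59 ± 0.20, 1.68 ± 0.24, 1.15 ± 0.15 and 1.11 ± 0.12 (SE). Without the 2 arrays, each of these 6 genes was set apart in RCS. CSRP2, a LIM protein of smooth muscle and activated stromal cells (slope 1.10 ± 0.11), kept the order but gained a departure.

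**Figure D3:**
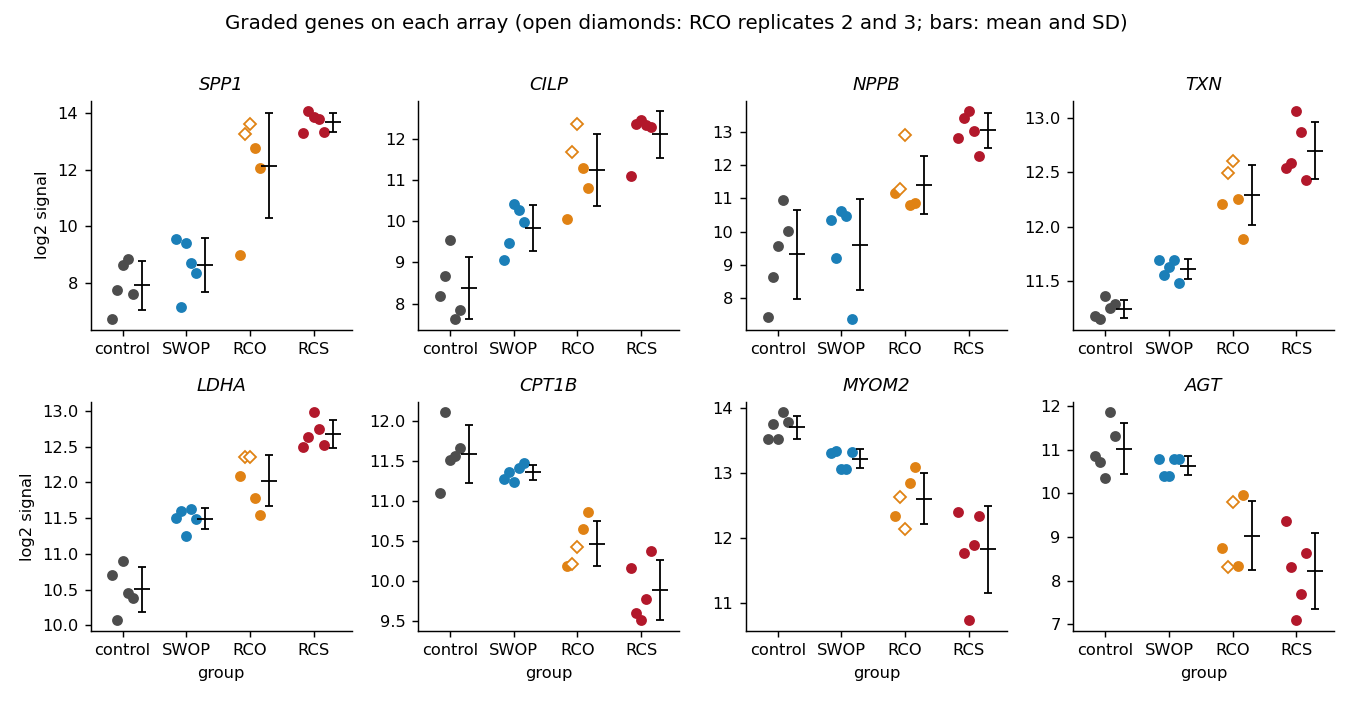
Log2 signal (vertical axes) of 8 graded genes on each array of the 4 groups (n = 5 each), with the mean and SD beside the points and RCO replicates 2 and 3 as open diamonds. SPP1, CILP, NPPB, TXN and LDHA rise over the groups, and CPT1B, MYOM2 and AGT fall.

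The gene lists are described by counts, to be read against all genes, of which 28.4% were higher, 25.8% lower and 8.93% had a departure (32.2% without RCO replicates 2 and 3). The lists and their members were chosen with earlier results of these data known. A list share above that of all genes may therefore come in part from the choice, and no test of a list was made. In the extracellular matrix list, 25 of 37 measured genes (67.6%) were higher along the score, 3 (8.11%) were lower and 19 were graded. Its median difference from control was 0.22 in SWOP, 0.55 in RCO and 0.99 in RCS, against 0.04, 0.01 and -0.00 over all genes. Without RCO replicates 2 and 3 the RCO median was 0.07, and genes of the list with a departure went from 1 to 17 (45.9%, against 32.2% of all genes). COL8A1, a short-chain collagen, had means of 7.10, 7.55, 8.70 and 9.67 and a slope of 0.89 ± 0.10. FN1, the matrix glycoprotein fibronectin, had a slope of 1.01 ± 0.16 (limma adjusted p = 7.62e-05). It read 13.98 and 13.36 on RCO replicates 2 and 3 and 9.72 to 11.79 on the other RCO arrays. COL1A2, a chain of type I collagen, had means of 10.01, 9.40, 10.57 and 11.29, lowest in SWOP, with a slope that passed (adjusted p = 0.0105). It read 12.08 and 11.71 on RCO replicates 2 and 3. The other RCO arrays read 8.65 to 10.21, where control read 9.23 to 10.71. COL3A1, of type III collagen, passed neither test, with means between 7.34 and 7.61. Its values were 7.18 to 7.76, where array medians were 6.75 to 6.82 and COL1A2 read 8.65 to 12.08. How well the COL3A1 probe set follows its transcript was not tested. FN1, COL1A2 and COL3A1 were named after their values were seen.

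Macrophage and monocyte genes numbered 15 higher (65.2%, against 28.4% of all genes) and 1 lower of 23 measured. Of the 23, 8 were graded, and the median differences from control were 0.11, 0.69 and 0.94, the RCO median being 0.38 without RCO replicates 2 and 3. AIF1, a calcium-binding protein of macrophages, rose from 7.92 ± 0.33 through 8.20 ± 0.27 and 9.32 ± 0.61 to 10.04 ± 0.32 (SD, n = 5; slope 0.75 ± 0.07, limma adjusted p = 6.63e-07). CTSS, a cathepsin of antigen-presenting cells, had a slope of 0.71 ± 0.08. CD163, a scavenger receptor of tissue macrophages named after its values were seen, reached 11.45 and 10.09 on RCO replicates 2 and 3 and 8.60 to 9.09 on the other RCO arrays, where RCS read 9.45 to 9.94. The highest CD163 levels of the study were therefore those of RCO replicates 2 and 3.

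Lysosomal genes were mostly higher along the score. Of 28 measured, 24 were higher (85.7%, against 28.4% of all genes) and 2 lower, with 15 graded, and the medians were 0.13, 0.45 and 1.06 above control. All 4 means rose in order for 20 members as deposited (1204 of 6765 among all genes). After quantile normalization they did so for 11, with a SWOP median of 0.01 and SWOP lowest for 13, and without RCO replicates 2 and 3 for 12, with an RCO median of 0.20. CTSB, the lysosomal protease cathepsin B, read 12.22, 12.35, 12.16, 12.24 and 12.28 in control, 12.35, 12.47, 12.73, 12.60 and 12.43 in SWOP, 11.95, 13.43, 13.35, 12.85 and 12.83 in RCO, and 13.57, 13.95, 13.88, 13.79 and 13.32 in RCS. RCS lay above control and SWOP, and RCO ran from below control into the RCS range. CTSZ, another cathepsin, and NPC2, a lysosomal cholesterol carrier, had slopes of 0.66 ± 0.07 and 0.60 ± 0.07. CTSD, cathepsin D, was set apart in RCS (means 9.93, 10.40, 10.43 and 11.98; limma adjusted p of the departure = 0.0354, lost in 10 of 29 alternative fits). Without RCO replicates 2 and 3, list members with a departure went from 3 to 22 (78.6%) for lysosome and from 0 to 15 (65.2%) for macrophages in limma, against 32.2% of all genes. With all arrays, 9 of the macrophage genes had an unadjusted p below 0.05 for the departure.

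Some cell type markers were higher along the score as well, against 28.4% higher and 25.8% lower of all genes. These were 4 of 7 for macrophages (57.1%) and 4 of 7 for fibroblasts (57.1%). For smooth muscle and pericytes 5 of 9 were higher (55.6%) and 2 lower (22.2%). Leaving out RCO replicates 2 and 3 moved the RCO median difference from control from 0.94 to 0.37 for macrophage markers. For fibroblast markers it moved from 0.55 to -0.19, and for smooth muscle and pericyte markers from 0.42 to -0.05. Endothelial markers had 1 higher and 1 lower of 9 (11.1% each). In bulk tissue, more cells of a type and more RNA per cell cannot be told apart. The log2 of the summed signal of the 7 macrophage markers ran from 10.56 to 11.38 on control arrays, from 10.64 to 11.41 on SWOP arrays, from 11.20 to 13.0 on RCO arrays and from 11.83 to 12.40 on RCS arrays. For the 7 fibroblast markers it was 12.66 to 13.63, 13.28 to 13.60, 13.09 to 14.40 and 13.88 to 14.77, and for the 9 smooth muscle and pericyte markers 14.18 to 14.52, 14.50 to 14.85, 14.36 to 15 and 14.87 to 15.29. Of the 8 cardiomyocyte markers, 5 were lower (62.5%, against 25.8% of all genes) and 1 higher. The higher marker was NPPA, with a slope of 1.09, which raised the mean of the 8. Their mean log2 difference from control was 0.04 in RCS, while the median over the 8 was -0.32. The log2 of their summed signal ran lower along the score, at 17.18 to 17.24, 17.14 to 17.22, 17.03 to 17.14 and 16.88 to 17.10. No macrophage, fibroblast or smooth muscle marker was below the 30th percentile in every group. The part of these markers in the matrix, macrophage and lysosome results was not tested. Nor was the part of the cardiomyocyte markers in the lower fatty acid, mitochondrial, sarcomere and calcium cycling genes described below.

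**Figure D4:**
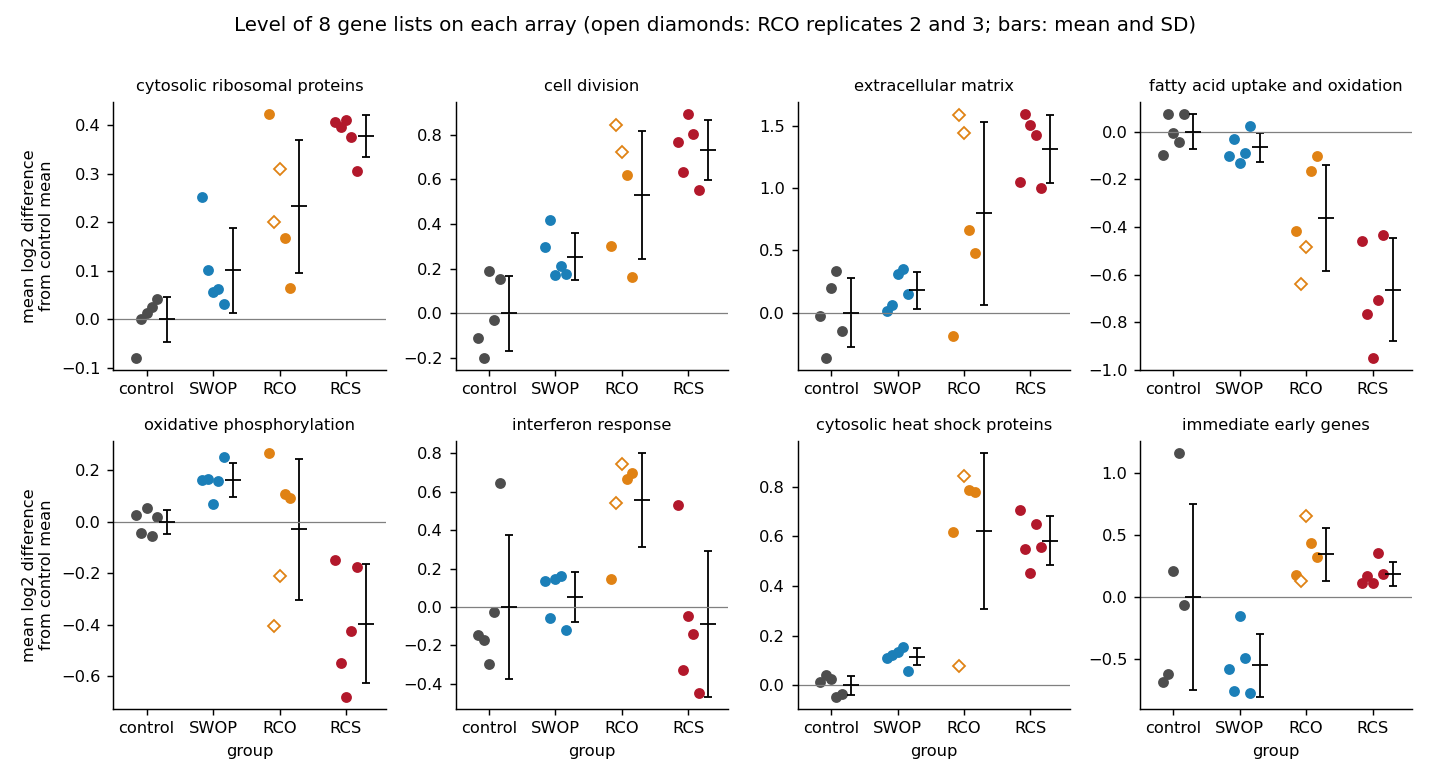
Mean log2 difference from the control mean (vertical axes) over the measured genes of 8 lists, on each array of the 4 groups (n = 5 each, mean and SD beside the points, RCO replicates 2 and 3 as open diamonds). Ribosomal, cell division and matrix lists climb, fatty acid oxidation falls, oxidative phosphorylation is highest in SWOP, and the interferon list is highest in RCO.

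Genes of protein synthesis were mostly higher along the score, by small amounts. Of 60 measured cytosolic ribosomal proteins, 53 were higher (88.3%, against 28.4% of all genes) and 1 lower, 51 were graded, and all 4 means rose in order for 53, against 1204 of 6765 genes overall. The median differences from control were 0.09, 0.20 and 0.35. RPSA, the ribosomal protein that is also a laminin receptor, read 12.88, 12.85, 12.95, 12.94 and 13.07 in control, 13.29, 12.92, 12.95, 13.04 and 12.96 in SWOP, 13.48, 13.54, 13.67, 13.37 and 13.06 in RCO, and 13.66, 13.73, 13.90, 13.73 and 13.69 in RCS. RCS lay above control and SWOP and touched RCO at 1 array. The slope was 0.28 ± 0.03 (SE; limma adjusted p = 1.66e-06). RPL3 and RPL13, of the large subunit, had slopes of 0.47 ± 0.05 and 0.24 ± 0.03. The count hardly moved without RCO replicates 2 and 3 (53 higher, 1 lower), and after quantile normalization 49 were higher.

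Of 40 translation factors and tRNA synthetases, 22 were higher (55.0%, against 28.4% of all genes) and 4 lower, with 15 higher after quantile normalization. EIF3I, a subunit of the initiation factor that binds the small ribosomal subunit, rose from 9.40 ± 0.18 to 10.23 ± 0.05 (SD, n = 5) and stayed graded without the 2 arrays. EIF4B, a cofactor of the helicase of initiation, fell by 0.22 per step. Of 36 proteasome and ubiquitin genes, 22 were higher (61.1%, against 28.4% of all genes) and 1 lower, and 14 were higher after quantile normalization. PSMD8, PSMB4 and PSMD14, subunits of the proteasome, had slopes of 0.19 ± 0.03, 0.14 ± 0.02 and 0.21 ± 0.04 and stayed graded.

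Endoplasmic reticulum chaperones numbered 19 higher (86.4%, against 28.4% of all genes) and 0 lower of 22 in limma (20 and 0 at an unadjusted p below 0.05), with 14 graded and medians of 0.23, 0.60 and 1.19 above control. MANF, a secreted stress protein of the endoplasmic reticulum, read 9.75, 9.69, 9.95, 9.62 and 10.06 in control, 10.21, 10.36, 10.05, 10.12 and 10.08 in SWOP, 10.87, 10.67, 11.16, 10.59 and 10.23 in RCO, and 11.20, 11.21, 11.36, 11.01 and 11.09 in RCS. The groups ascended with slight overlaps between neighbours (slope 0.46 ± 0.04, limma adjusted p = 3.02e-07), and MANF stayed graded. CRELD2, an isomerase induced by misfolded protein, and SEC61B, of the channel through which proteins enter the reticulum, had slopes of 0.77 ± 0.07 and 0.62 ± 0.06 and were set apart in RCS without RCO replicates 2 and 3. Without them the RCO median of the list was 0.24, and 14 members (63.6%) in place of 2 had a departure, against 32.2% of all genes.

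Cell division genes were mostly higher along the score. Of 35 measured, 27 were higher (77.1%, against 28.4% of all genes) and 2 lower, 20 were graded, and the medians were 0.31, 0.49 and 0.73 above control. TOP2A, the topoisomerase of dividing cells, had values of 7.44, 6.79, 7.68, 7.42 and 8.04 in control, 8.20, 8.21, 7.88, 7.87 and 7.74 in SWOP, 8.29, 9.09, 8.80, 8.86 and 7.95 in RCO, and 8.86, 8.90, 9.06, 9.08 and 8.86 in RCS. Control and SWOP overlapped and RCS lay above both (slope 0.51 ± 0.06, limma adjusted p = 6.31e-06). CKS2, a cofactor of cyclin-dependent kinases, had a slope of 0.63 ± 0.07 and was graded when the 2 arrays were left out but not with them. Without the 2 arrays, 5 members (14.3%) in place of 2 had a departure, a smaller share than the 32.2% of all genes.

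Genes of fatty acid use were mostly lower along the score. In the fatty acid uptake and oxidation list, 26 of 33 genes were lower (78.8%, against 25.8% of all genes) and 1 higher, 16 were graded, and the medians were -0.09, -0.34 and -0.66 from control. The RCO median without RCO replicates 2 and 3 was -0.20, and 9 members (27.3%) in place of 2 had a departure, against 32.2% of all genes. CPT1B, the muscle enzyme that admits fatty acids to mitochondria, read 11.10, 12.11, 11.52, 11.57 and 11.66 in control, 11.28, 11.37, 11.24, 11.42 and 11.48 in SWOP, 10.19, 10.22, 10.43, 10.65 and 10.86 in RCO, and 10.17, 9.60, 9.51, 9.78 and 10.38 in RCS. Control and SWOP overlapped, and every RCO and RCS array lay below both. The slope was -0.60 ± 0.06 (SE; limma adjusted p = 4.1e-07), RCS was 3.26-fold below control, and the gene stayed graded. ACADL, a long-chain acyl-CoA dehydrogenase, fell by 0.33 per step and stayed graded, and OXCT1, an enzyme of ketone body use, fell by 0.38. ACSL1, which activates fatty acids, kept its level in SWOP and was lower in RCO and RCS (means 11.39, 11.54, 10.45 and 10.42; adjusted p of the departure = 0.0441, lost in 15 of 29 alternative fits). Of 6 measured adipocyte markers, 3 were lower along the score (50.0%, against 25.8% of all genes) and 0 higher, with medians of -0.30, -0.54 and -0.78 from control. The log2 of their summed signal ran from 12.95 to 13.49 on control arrays, from 12.99 to 13.26 in SWOP, from 12.61 to 13.03 in RCO and from 12.22 to 13.03 in RCS. FABP4 and LPL stand on both lists, and the part of the adipocyte markers in the fatty acid result was not tested.

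Genes of mitochondrial respiration mostly had their highest mean in SWOP. Of 56 oxidative phosphorylation genes, 41 were lower along the score (73.2%, against 25.8% of all genes) and 1 higher, but 3 were graded, and SWOP had the highest mean for 48, against 1665 of 6765 genes overall. RCS had the lowest mean for 52, against 2549 of 6765 genes overall. The medians were 0.14, -0.07 and -0.40 from control. SWOP stayed highest for 41 genes after quantile normalization and for 51 after median centring. Without RCO replicates 2 and 3, SWOP was highest for 25 genes and RCO for 26, the RCO median was 0.14, and 49 members (87.5%) in place of 4 had a departure, against 32.2% of all genes.

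UQCR10, a small subunit of complex III, showed this shape. It read 12.80, 12.76, 12.89, 12.72 and 12.85 in control, 13.06, 13.03, 13.01, 13.03 and 13.17 in SWOP, 13.24, 12.51, 12.77, 13.06 and 13.10 in RCO, and 12.73, 12.30, 12.29, 12.45 and 12.57 in RCS. SWOP lay above control and RCS without overlap, and RCO replicates 2 and 3 were the lowest of their group. Its departure passed (limma adjusted p = 0.0259) and was lost without SWOP replicate 2, 4 or 5. NDUFV1 and NDUFS7, core subunits of complex I, were level in control and SWOP and lower afterwards (means 12.00, 11.97, 11.53 and 10.96, and 12.54, 12.55, 12.16 and 11.51), with slopes of -0.36 ± 0.05 and -0.35 ± 0.05. Across the list, the oxidative phosphorylation level on RCO arrays was 0.267, -0.405, -0.212, 0.109 and 0.091, so the 2 arrays that lay near RCS in general lay near it here too.

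Of 25 genes of the tricarboxylic acid cycle, 22 were lower (88.0%, against 25.8% of all genes) and 1 higher, with 4 graded and medians of 0.08, -0.23 and -0.50. Without RCO replicates 2 and 3 the RCO median was -0.10 and 9 members had a departure, against 32.2% of all genes. SWOP was highest for 18 as deposited and 21 after median centring, but for 10 after quantile normalization, where the SWOP median turned to -0.02. Among all 6765 genes SWOP was highest for 1665, 1840 and 1392 in the same order. MDH2, mitochondrial malate dehydrogenase, had means of 13.19, 13.18, 12.83 and 12.50 (slope -0.24 ± 0.04). SDHB, the iron-sulfur subunit of complex II, fell by 0.23 per step.

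Glycolysis as a list had no common direction, with 4 of 21 genes higher and 6 lower (28.6%, against 25.8% of all genes). LDHA, the muscle lactate dehydrogenase subunit, was its steepest member. It read 10.71, 10.07, 10.90, 10.45 and 10.38 in control, 11.50, 11.60, 11.25, 11.63 and 11.49 in SWOP, 12.09, 12.36, 12.36, 11.78 and 11.54 in RCO, and 12.50, 12.64, 12.98, 12.74 and 12.52 in RCS. Control lay below SWOP and RCS above RCO without overlap, and SWOP and RCO met at 1 array (slope 0.70 ± 0.05, limma adjusted p = 6.5e-08). SLC16A3, a lactate exporter, had means of 5.27, 5.66, 6.16 and 6.78 and stayed graded. TPI1, triosephosphate isomerase, departed from the line, with its highest mean in SWOP (12.19, 12.50, 12.34 and 12.18; adjusted p of the departure = 0.0387, lost in 11 of 29 alternative fits). In the hypoxia list, 7 of 23 genes were higher (30.4%) and 6 lower (26.1%), near the shares of all genes (28.4% and 25.8%). CITED2, a regulator that competes with hypoxia-inducible factor, was level in control and SWOP and lower in RCO and RCS (11.51, 11.64, 10.36 and 10.18; adjusted p of the departure = 0.0147).

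Contractile genes were mostly lower along the score. Of 20 sarcomere genes, 14 were lower (70.0%, against 25.8% of all genes) and 2 higher, with 7 graded. MYOM2, a myomesin of the M-band, read 13.53, 13.76, 13.53, 13.94 and 13.79 in control, 13.32, 13.35, 13.07, 13.07 and 13.33 in SWOP, 12.34, 12.63, 12.14, 12.86 and 13.10 in RCO, and 12.41, 11.78, 10.74, 11.90 and 12.34 in RCS. All control arrays lay above all SWOP arrays, and the later groups overlapped at their edges (slope -0.62 ± 0.07, limma adjusted p = 3.16e-06). ACTC1, cardiac actin, and TTN, the giant spring protein titin, had slopes of -0.21 ± 0.03 and -0.15 ± 0.02, and all 3 genes stayed graded. MYH7, the slow myosin heavy chain, named after its values were seen, passed neither test, with means of 14.77 to 14.87. Its values, 14.58 to 14.90, were among the brightest of the named genes. At so high a signal a change could be missed.

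In the calcium cycling list, 9 of 15 genes were lower (60.0%) and 3 higher. CAMK2D, the main cardiac calmodulin kinase, fell by 0.27 per step, and ATP2A2, the calcium pump of the sarcoplasmic reticulum, which was named after its values were seen, fell by 0.19, both graded with and without the 2 arrays. ATP2B1, a calcium pump of the cell membrane, rose by 0.57 ± 0.06 per step. In the ion channel list, 7 of 11 genes were lower (63.6%, against 25.8% of all genes) and 0 higher in limma (8 and 0 at an unadjusted p below 0.05). KCNIP2, the subunit that sustains the transient outward potassium current, had values of 10.94, 10.19, 11.25, 11.11 and 11.15 in control, 10.57, 10.93, 10.55, 10.21 and 9.82 in SWOP, 9.64, 8.55, 8.80, 9.62 and 9.91 in RCO, and 9.88, 8.41, 6.15, 8.19 and 8.0 in RCS. Every control array lay above every RCO and RCS array, and SWOP met RCO at 1 array (slope -0.95 ± 0.14, limma adjusted p = 3.39e-05). GJA1, connexin 43 of the gap junctions, fell by 0.13.

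Fetal and load genes were divided, with 11 of 19 higher (57.9%) and 4 lower (21.1%), against 28.4% and 25.8% of all genes. The RCO median difference from control was 0.23, and -0.02 without RCO replicates 2 and 3. NPPB, the natriuretic peptide BNP, read 7.44, 8.63, 9.57, 10.94 and 10.02 in control, 10.36, 9.20, 10.61, 10.47 and 7.37 in SWOP, 11.17, 11.28, 12.91, 10.79 and 10.86 in RCO, and 12.82, 13.42, 13.61, 13.03 and 12.28 in RCS. Control and SWOP varied widely and covered the same range, and RCS lay above both. The slope was 1.29 ± 0.19 (SE; limma adjusted p = 3.73e-05), and NPPB stayed graded. NPPA, the atrial peptide, had means of 10.02, 10.57, 11.18 and 13.43 and became an RCS gene without RCO replicates 2 and 3. CNN1, calponin of smooth muscle, took most of its rise at the first step (8.62, 10.11, 10.54 and 10.84).

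Among hormone and growth factor genes, 13 of 28 were lower (46.4%) and 2 higher (7.14%), against 25.8% and 28.4% of all genes. AGT, the precursor of angiotensin, had the steepest fall per step among the graded genes. It read 10.86, 10.71, 10.35, 11.86 and 11.32 in control, 10.79, 10.39, 10.41, 10.80 and 10.78 in SWOP, 8.75, 8.32, 9.80, 8.33 and 9.96 in RCO, and 9.37, 8.31, 7.09, 7.70 and 8.63 in RCS. Every control and SWOP array was above every RCO and RCS array (slope -1.0 ± 0.12, limma adjusted p = 3.83e-06), and RCS was 6.96-fold below control. AGTR1, its main receptor, had means of 9.08, 9.07, 8.64 and 7.95, and EDNRA, an endothelin receptor, fell by 0.35 per step. SELENBP1, a selenium-binding protein, SCARA5, a ferritin receptor, and ASB11, a muscle ubiquitin ligase adaptor, fell by 0.63, 0.90 and 0.72, of which SELENBP1 stayed graded.

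Protective enzymes divided. In the antioxidant and late preconditioning list, 13 of 31 genes were higher (41.9%) and 7 lower (22.6%), against 28.4% and 25.8% of all genes, with 10 graded. TXN, thioredoxin, read 11.18, 11.15, 11.36, 11.25 and 11.29 in control, 11.69, 11.56, 11.63, 11.69 and 11.48 in SWOP, 12.21, 12.49, 12.60, 12.25 and 11.89 in RCO, and 12.54, 12.58, 13.06, 12.87 and 12.43 in RCS. Control, SWOP and RCO did not overlap with each other, and RCO and RCS overlapped (slope 0.50 ± 0.04, limma adjusted p = 8.51e-08). TXN stayed graded. GLRX, glutaredoxin, gained most at the first step, with means of 7.87, 8.84, 9.42 and 9.69. CAT, catalase, fell by 0.33 per step and stayed graded.

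Effectors associated with late preconditioning, named after their values were seen, did not share a shape. GPX1, glutathione peroxidase, read 10.69, 10.74, 8.34, 10.70 and 10.56 in control, 11.73, 11.53, 9.41, 9.12 and 10.73 in SWOP, 11.42, 12.82, 12.75, 11.86 and 12.10 in RCO, and 13.11, 12.95, 13.13, 13.00 and 12.95 in RCS. RCS lay above all other arrays, and SWOP was the most scattered group (slope 1.01 ± 0.15, limma adjusted p = 3.76e-05). ALDH2, mitochondrial aldehyde dehydrogenase, and HMOX1, heme oxygenase, had slopes of 1.03 ± 0.13 and 0.67 ± 0.12 and became RCS genes without RCO replicates 2 and 3. NOS2, inducible nitric oxide synthase, had means of 7.22, 6.94, 7.25 and 6.73 (adjusted p of the slope = 0.0194 and of the departure = 0.0474). The slope of NOS2 was lost without control replicate 2 or RCS replicate 3, and its departure in 19 of 29 alternative fits. PTGS2, cyclooxygenase-2, passed neither test, with means of 4.47, 4.10, 4.41 and 4.25. Its values were dim, at 3.96 to 4.79 apart from control replicate 4 at 6.0, where array medians were 6.75 to 6.82. At so low a signal a change could be missed.

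Several inducible heat shock genes had their highest mean in RCO and SWOP close to control. HSPA6, a strictly stress-induced member of the HSP70 family named after its values were seen, read 6.62, 6.32, 6.66, 7.09 and 6.46 in control, 7.59, 6.03, 6.41, 6.13 and 6.46 in SWOP, 11.88, 9.10, 13.13, 12.85 and 12.77 in RCO, and 12.17, 10.43, 8.19, 11.82 and 10.40 in RCS. Every RCO and RCS array lay above every control and SWOP array, and RCO replicate 2 and RCS replicate 3 were the lowest of their groups. The slope was 1.73 ± 0.21 (limma adjusted p = 4.94e-06) and the departure also passed (adjusted p = 0.0105). Copies of HSP70 are nearly identical, and the probe set may read more than 1 of them.

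DNAJB1, a co-chaperone of HSP70, read 8.42, 8.79, 8.39, 8.52 and 8.79 in control, 8.89, 8.14, 8.25, 8.29 and 7.99 in SWOP, 12.24, 9.76, 12.37, 11.77 and 12.03 in RCO, and 11.38, 10.38, 9.18, 11.19 and 10.38 in RCS. The split between the first 2 groups and the last 2 was again complete (adjusted p of the departure = 0.00697 in limma). HSPH1, a nucleotide exchange factor of HSP70, had means of 9.15, 9.28, 11.91 and 11.49. In the whole heat shock list 20 of 36 genes were higher (55.6%, against 28.4% of all genes) and 2 lower, and 8 were graded. A departure was found for 7 (19.4%, against 8.93%), and without RCO replicates 2 and 3 for 14 (38.9%, against 32.2%). With the groups scored by sessions, where RCO and RCS stand level, the departures of HSPA6, DNAJB1 and HSPH1 were lost. The small heat shock proteins CRYAB and HSPB1, abundant in heart muscle and named after their values were seen, were graded with slopes of 0.20 ± 0.04 and 0.25 ± 0.05. PTGES3, a cochaperone of HSP90, rose by 0.36 ± 0.03 per step and stayed graded.

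Interferon genes mostly had their highest mean in RCO. Of 26 measured, 2 had a higher and 1 a lower slope and 8 had a departure (30.8%, against 8.93% of all genes), and RCO had the highest mean for 23, against 883 of 6765 genes overall. That count was 23 after quantile normalization and 22 without RCO replicates 2 and 3. No member had its 4 means in order, and the medians were 0.01, 0.52 and -0.13 from control. UBD, an interferon-induced ubiquitin-like protein, read 9.40, 9.92, 9.71, 8.86 and 10.21 in control, 10.73, 10.10, 10.25, 10.19 and 9.85 in SWOP, 11.36, 10.25, 10.72, 11.01 and 10.91 in RCO, and 10.52, 8.28, 8.24, 9.51 and 8.57 in RCS. RCO lay above control without overlap, and RCS replicate 1 alone of its group reached the RCO range (limma adjusted p of the departure = 0.0151). GBP2, a guanylate-binding protein, and PSMB8 and PSMB10, subunits of the immunoproteasome, also had departures (adjusted p = 0.0186, 0.0253 and 0.0286) with highest means in RCO of 8.24, 9.43 and 9.10. The departure of PSMB10 was lost in 6 of 29 alternative fits. MX1, ISG15 and CXCL9, named after their values were seen, had their highest means in RCO (9.86, 10.60 and 9.42) but passed neither test. Of 9 lymphocyte markers, 0 had a higher and 1 a lower slope in limma (0 and 3 at an unadjusted p below 0.05), and 6 of the 9 had their highest mean in RCO. Their part in the interferon result was not tested.

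Immediate early genes mostly had their lowest mean in SWOP. Of 26 measured, 6 had a higher and 1 a lower slope and 6 a departure (23.1%, against 8.93% of all genes), and SWOP had the lowest mean for 20 (19 after quantile normalization), against 1034 of 6765 genes overall. The medians were -0.44, 0.16 and 0.16 from control. The list's level on control arrays ran from -0.687 to 1.164, which spans all SWOP arrays (-0.777 to -0.158) apart from 2. NR4A3, an orphan nuclear receptor induced by stress, was set apart in SWOP. It read 9.28, 7.18, 11.01, 11.99 and 10.90 in control, 8.73, 6.53, 7.29, 7.40 and 6.27 in SWOP, 11.09, 10.62, 10.18, 12.22 and 12.36 in RCO, and 9.84, 10.46, 8.63, 10.66 and 11.36 in RCS. SWOP lay low, but control replicate 2 and RCS replicate 3 fell within its range (limma adjusted p of the departure = 0.014). It kept a departure but not that shape without RCO replicates 2 and 3. ATF3, a stress transcription factor, had means of 8.53, 7.33, 11.22 and 9.94 (adjusted p of the departure = 0.0127). FOS and EGR1, named after their values were seen, passed neither test.

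Of the 32 genes set apart in SWOP, 28 were higher and 4 lower there. Clusterin, CLU, a secreted chaperone, was the clearest of those lower. It read 12.56, 12.13, 12.60, 12.21 and 12.43 in control, 11.27, 9.92, 10.96, 11.36 and 10.91 in SWOP, 11.63, 13.22, 13.01, 11.72 and 12.71 in RCO, and 12.90, 12.48, 12.56, 12.48 and 12.50 in RCS. All SWOP arrays lay below all others (limma adjusted p of the departure = 0.00634). GATA4, a cardiac transcription factor, read 9.07, 9.64, 9.32, 9.37 and 9.32 in control, 9.55, 10.12, 9.94, 9.88 and 10.02 in SWOP, 9.0, 8.76, 9.09, 9.40 and 9.37 in RCO, and 9.31, 8.85, 8.99, 9.20 and 9.39 in RCS. SWOP lay above RCO and RCS and met control at 1 array (adjusted p of the departure = 0.0136). FOSL2, a partner of JUN in the AP-1 factor, was lower in SWOP (7.20, 6.26, 7.45 and 7.60), as was SNX30, a sorting nexin (6.02, 5.65, 6.09 and 6.01). CLU, GATA4, FOSL2 and SNX30 kept their shape without RCO replicates 2 and 3. CDK16, a cyclin-dependent kinase, ARHGEF2, an activator of RhoA, PHTF1, and NR2F6, an orphan nuclear receptor, had SWOP means of 9.62, 10.09, 5.50 and 10.30 and kept a departure but not that shape without the 2 arrays. The departure of SNX30 was lost without SWOP replicate 2, 3, 4 or 5.

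**Figure D5:**
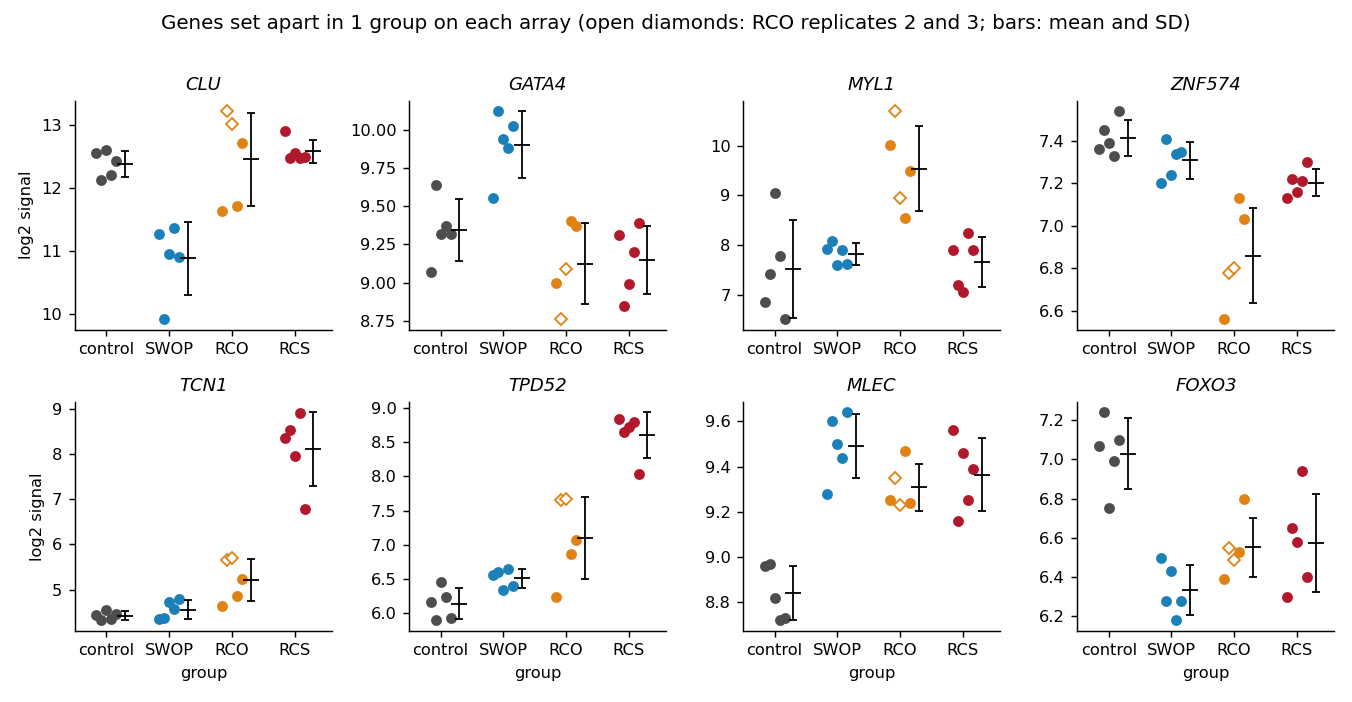
Log2 signal (vertical axes) of 8 genes set apart in 1 group, on each array of the 4 groups (n = 5 each, mean and SD beside the points, RCO replicates 2 and 3 as open diamonds). CLU and GATA4 stand out in SWOP, MYL1 and ZNF574 in RCO, TCN1 and TPD52 in RCS, and MLEC and FOXO3 in control.

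Genes set apart in RCO were few, 2 higher and 4 lower. MYL1, a myosin light chain typical of fast skeletal and embryonic muscle, read 6.85, 7.41, 9.05, 7.78 and 6.50 in control, 7.91, 8.09, 7.59, 7.89 and 7.61 in SWOP, 10.02, 10.70, 8.95, 8.55 and 9.49 in RCO, and 7.89, 7.19, 7.05, 8.25 and 7.89 in RCS. RCO lay above SWOP and RCS, and control replicate 3 fell within its range (limma adjusted p of the departure = 0.0144). Of 7 skeletal muscle markers, 0 had a higher and 5 a lower slope in limma (0 and 5 at an unadjusted p below 0.05), and 2 of the 7 had their highest mean in RCO. Among all genes 25.8% had a lower slope, and 883 of 6765 had their highest mean in RCO. The part of the skeletal muscle markers in the MYL1 result was not tested. SCLY, selenocysteine lyase, was the other gene higher in RCO (6.88, 6.92, 7.50 and 7.0). ZNF574, a zinc finger protein, and MAPRE3, a microtubule end-binding protein, were lower (RCO means 6.86 and 7.45) and lost the shape without RCO replicates 2 and 3. BRPF3 and NCOR1, chromatin cofactors, were lower by small amounts (6.29 against 6.61 to 6.63, and 9.16 against 9.44 to 9.45). The departure of SCLY was lost in 5, that of NCOR1 in 10 and that of BRPF3 in 18 of 29 alternative fits.

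Of the 66 genes set apart in RCS, 43 were higher and 23 lower. TCN1, a vitamin B12 binder of granules and glands, read 4.45, 4.32, 4.55, 4.36 and 4.46 in control, 4.34, 4.37, 4.72, 4.57 and 4.80 in SWOP, 4.63, 5.65, 5.70, 4.87 and 5.23 in RCO, and 8.36, 8.53, 7.95, 8.91 and 6.78 in RCS. RCS was separate from all other arrays, and RCO replicates 2 and 3 were the highest of the rest (limma adjusted p of the departure = 0.00435). SMPDL3A, a phosphodiesterase of macrophages, had means of 6.39, 6.52, 7.32 and 10.06. CSTB, the protease inhibitor cystatin B, and TPD52, a vesicle protein, had RCS means of 12.65 and 8.61. LYPD6, a membrane-anchored protein of the Ly6 family, read 8.87, 9.14, 8.87, 9.18 and 8.89 in control, 8.79, 8.89, 9.15, 8.82 and 9.35 in SWOP, 9.13, 8.22, 8.66, 8.67 and 8.64 in RCO, and 8.12, 6.98, 6.89, 7.54 and 7.63 in RCS, where every array was below all others. FGF1, a growth factor (5.24 in RCS against 6.01 to 6.22), and HSD17B8, a mitochondrial fatty acid synthesis enzyme (8.76 against 9.50 to 9.76), were also lower. RNASE4 and NOSTRIN, which binds endothelial nitric oxide synthase, lost the shape without RCO replicates 2 and 3. The departures of CSTB, TPD52 and NOSTRIN were lost in 15, 18 and 17 of 29 alternative fits, and those of RNASE4, FGF1 and HSD17B8 in 17, 8 and 17, most of them with 1 array left out. The departures of SMPDL3A and LYPD6 were lost without SWOP replicate 5. The slope of NOSTRIN was lost without control replicate 1, 3 or 5 or RCS replicate 2, 3 or 4.

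In 12 genes control stood alone, with SWOP, RCO and RCS in a narrow range of each other. MLEC, a lectin of the endoplasmic reticulum, read 8.96, 8.97, 8.82, 8.72 and 8.73 in control, 9.28, 9.60, 9.50, 9.44 and 9.64 in SWOP, 9.25, 9.35, 9.23, 9.47 and 9.24 in RCO, and 9.56, 9.16, 9.46, 9.25 and 9.39 in RCS. All control arrays lay below all others (limma adjusted p of the departure = 0.00835), and the shape held without RCO replicates 2 and 3. RTCA, an RNA cyclase, HSPA4, a chaperone of the HSP110 family, and TOMM5, of the mitochondrial import pore, were likewise lower in control (8.32, 8.98 and 10.44 against 8.83 to 9.02, 9.41 to 9.66 and 10.88 to 11.04). FKBP1B, a stabiliser of the calcium release channel, was lower in control at 6.78, with 7.59, 8.19 and 8.19 in the protocols. FOXO3, a transcription factor of stress and autophagy, was higher in control at 7.03, with 6.33, 6.55 and 6.57, although RCO replicate 5 and RCS replicate 4 fell within the control range. PER1, a circadian clock gene, was higher in control as well (10.94 against 10.12 to 10.30). FKBP1B, FOXO3 and PER1 lost the shape without RCO replicates 2 and 3, and the departures of PER1, TOMM5, RTCA, HSPA4 and FKBP1B were lost in 18, 16, 13, 10 and 4 of 29 alternative fits. The sources used here do not give the hour of sampling.

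Over the 4 groups, probe sets set apart in 1 group numbered 398. With 1 array left out they numbered 260, 239 and 258 (control replicates 2, 4 and 5), 1100 (RCO replicate 2), 133, 166, 126 and 119 (SWOP replicates 2 to 5), and 258, 241 and 224 (RCS replicates 2, 3 and 4). The other 9 omissions left the count within 1.5 times of 398.

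The remaining lists were mixed. Cytokine, chemokine and adhesion genes had 7 higher (26.9%) and 6 lower (23.1%) of 26, near the shares of all genes (28.4% and 25.8%). SWOP was lowest for 15 of them, against 1034 of 6765 genes overall. IL18, a cytokine of macrophages, had means of 5.84, 5.87, 7.12 and 7.32, and TNF fell by 0.22 per step. CXCL2, a neutrophil chemokine, fell by 0.64 per step with control values spread by an SD of 2.17. Apoptosis and autophagy genes had 11 higher (39.3%) and 7 lower (25.0%) of 28, against 28.4% and 25.8% of all genes. CASP8, an initiator caspase, and BAD, a promoter of cell death, rose by 0.28 ± 0.04 and 0.18 ± 0.03 per step and stayed graded. MAP1LC3A, an autophagosome protein, was higher in SWOP and RCO (10.88, 11.51, 11.41 and 10.81; limma adjusted p of the departure = 0.0121). The 8 measured clock genes had 3 higher and 3 lower (37.5% each, against 28.4% and 25.8% of all genes), among them ARNTL, the partner of CLOCK (6.17, 7.47, 7.20 and 7.60).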

How the data were processed

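Gene expression was measured in 20 pig hearts, 1 array each, and the groups were taken from the sample labels. The authors deposited log2 values, which entered unchanged. RMA and MAS5 are named for them per the submitters' processing notes, and the sources used here give no versions. That the logarithm has base 2 was read from the spread of values. Per the labels' protocols, total RNA was extracted with Trizol and amplified from an oligo(dT) primer. The p-values measure the spread between these animals. The number of arrays limits the precision.

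From these values, 124 control spots were left out, and the 4 group means of 23999 probe sets were fitted in R 4.3.3 with limma 3.58.1 (lmFit, eBayes; 16 residual degrees of freedom). The slope was tested with a moderated t and the departure with a moderated F on 2 contrasts, each with Benjamini-Hochberg adjustment over all probe sets. Of the probe sets, 10069 had 1 symbol, 198 several and 13732 none, and a gene was its probe set of highest mean signal (2261 of 6765 genes had more than 1). Of 10267 probe sets with a symbol, 9961 matched RefSeq. The 25 lists had 713 of 991 members measured. The members and lists were chosen with earlier results of these data known.

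Named genes had 1 symbol and a highest group mean above the 30th percentile. They were the 10 largest graded slopes in each direction, the 5 largest differences in each direction for each group set apart, and, per list, at most 3 genes by smallest adjusted slope p and 2 by smallest adjusted departure p. Genes chosen otherwise are said to be so in the text. Python 3.11.15 made the tables (numpy 2.4.6, pandas 2.3.3) and figures (matplotlib 3.10.9), and the fit was tested on simulated data. Alternatives were quantile normalization, median centring, array weights, a robust spread with an intensity trend, dim probe sets left out, other scores, a replicate block, and arrays or groups left out. The fits without the 2 arrays of highest spike-in signal, and median centring of the lists, were added after the data had been seen. Promoter motifs were not analysed here.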

Additional observations from a re-analysis of the deposited data

Results flagged for a closer look

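In the 564 groups of 5 values examined (127 genes of the text, 11 lists and the array properties), 34 had 1 array standing apart from the other 4 by Dixon's 95% criterion, and chance gives about 1 in 20 groups. Each is given with the value of the array, and 10 of them with the range of the other 4.

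On spike-in controls, SWOP replicate 1 stood at 10.91 against 10.46 to 10.55, and RCO replicate 1 at 11.09 against 10.52 to 10.65. Every RCS array read lower there (10.21 to 10.43) than any array outside RCS, of which SWOP replicate 3 was lowest at 10.46. The part of this RCS shift in the results was not tested. SWOP replicate 1 also stood apart for MDH2 at 12.99, TTN at 14.07, GJA1 at 12.36, RPL13 at 12.55 and HSPA6 at 7.59. RCO replicate 1 stood at 5.55 for SMPDL3A, where the other RCO arrays read 7.64 to 7.91. RCO replicate 2 was the low array for DNAJB1, at 9.76 against 11.77 to 12.37. RCO replicate 3 was high for NPPB, at 12.91 against 10.79 to 11.28, and for PTGS2, at 4.79.

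Among controls, replicate 5 was high for the interferon list at 0.65 against -0.30 to -0.03, for GBP2 at 8.14 and for CXCL9 at 9.83. Control replicate 4 was high for PTGS2 at 6.00 against 3.96 to 4.26, for SCARA5 at 9.87 and for IL18 at 6.30. Control replicate 3 was low for GPX1 at 8.34 against 10.56 to 10.74, and high for CRYAB at 13.77. Control replicate 2 was low for CDK16 at 8.57 and for the lysosome list at -0.09, and high for PTGES3 at 8.37.

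In SWOP, replicate 5 was low for NPPA at 8.81 against 10.68 to 11.38 and for RPL3 at 11.94, replicate 2 was low for FN1 at 10.69, and replicate 3 was high for CASP8 at 6.14. In RCS, replicate 1 was low for CILP at 11.11 against 12.29 to 12.46 and for CNN1 at 10.04, and high for CLU at 12.90 and EIF4B at 10.95. RCS replicate 5 was low for TPD52 at 8.03, CKS2 at 9.04 and PTGS2 at 4.14, and high for TTN at 14.02.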

How the results depend on the processing

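Counts are of probe sets. Slopes passed for 11061, and for 2048 without the RCS group; with 1 array left out the range was 9250 to 11944. Departures passed for 2028, with a leave-one-out range of 487 to 4503. They passed for 1165 after quantile normalization, 3191 with array weights per group, 6832 without RCO replicates 2 and 3, 5841 with the score by sessions, 3559 with the score by log2 minutes, 37 without the SWOP group and 994 without the RCS group. Graded probe sets numbered 3840, with a range of 2983 to 4411, and 2085 without RCO replicates 2 and 3, 2117 with the score by sessions, 7352 without the SWOP group, 7856 without the RCO group and 1451 without the RCS group. Fits that drop a group compare 3 means and have fewer ways to depart. Probe sets set apart in 1 group numbered 398, with a range of 119 to 1100, and 260 after quantile normalization, 1958 without RCO replicates 2 and 3, 1385 by sessions, 776 by log2 minutes and 197 under a narrower limit for the other groups. With array weights the RCO arrays had a weight of 0.525, against 1.18, 1.52 and 1.06 in control, SWOP and RCS. The cause of these differences was not tested. Equal replicate numbers were not treated as pairs, since the labels tie them to nothing. Of 30 such pairs, 10 correlated above 0.1 (range -0.179 to 0.44), and pairs of unlike number were not counted for comparison. That 11 of 20 arrays correlated best with their own number is a hint of pairing from the data, not from the design. A structure shared by equal numbers was not tested further. With the replicate block, 11422 slopes, 2796 departures, 3797 graded and 619 set apart were found, against 11061, 2028, 3840 and 398 without it. Of 133 slopes of named genes, 83 kept direction and call in all alternatives, and of 73 departures 21 did. Slopes turned sign in 7 genes, each without the RCS group: NOSTRIN 0.165, UQCR10 0.066, ANKRD1 -0.002, RSAD2 0.097, GCLM -0.037, TFRC 0.216 and NOS2 0.014. The 2 position means stayed within 1 SD in the alternatives tried. A pseudocount could not apply to log2 values.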

Other observations

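A few named genes of other shapes were not described above. ANKRD1, a stress-responsive nuclear protein of heart muscle, had its lowest mean in SWOP (14.02, 13.56, 14.01 and 14.31 in score order; limma adjusted p of the departure = 0.0146). TFRC, the transferrin receptor of iron uptake, was highest in SWOP and lowest in RCS (9.05, 10.00, 9.48 and 8.42; adjusted p of the departure = 0.0191). COX7A2, a subunit of cytochrome oxidase, was higher in SWOP and RCO than in control and RCS (12.37, 12.78, 12.79 and 12.47; adjusted p of the departure = 0.0282). GJA5, connexin 40 of the conduction system and arteries, had its highest mean in SWOP (7.60, 8.30, 7.61 and 7.96; adjusted p of the departure = 0.0452).

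IGF1R, a growth factor receptor, had its lowest mean in RCO (8.64, 8.60, 7.79 and 8.25; limma adjusted p of the departure = 0.0252). PSME1, an activator of the proteasome that interferon induces, had its highest mean in RCO (9.93, 10.11, 10.63 and 10.26; adjusted p of the departure = 0.0247). DDIT3, a transcription factor of endoplasmic reticulum stress, was also highest in RCO (8.01, 7.64, 9.08 and 8.30; adjusted p of the departure = 0.0395), and it was set apart in RCO when RCO replicates 2 and 3 were left out.

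The departures of COX7A2, IGF1R and PSME1 were lost in 3, 3 and 2 of 29 alternative fits, and those of GJA5 and DDIT3 in 14 and 15.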
